A study of Mus musculus with 11 samples.

Results

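Chemokines are small secreted proteins that guide migrating cells, and their receptors are 7-pass membrane proteins that signal through inhibitory G proteins. Most ligands and receptors are named by the spacing of the first cysteines of the ligand (CC, CXC, XC and CX3C). The atypical receptors (ACKR) bind chemokines without G protein signalling and take them up, which shapes gradients in tissue. In the mammary gland, chemokines draw macrophages and eosinophils to the growing ducts, and CXCL12 with its receptors CXCR4 and ACKR3 has been studied in both the normal epithelium and its tumours.

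The genes described here were those with a mouse symbol of Ccl, Cxcl, Ccr or Cxcr followed by digits and an optional letter, together with Xcl1, Xcr1, Cx3cl1, Cx3cr1 and Ackr1 to Ackr4. This gave 62 of the 27179 genes counted, 40 ligands and 22 receptors. The families were 25 Ccl and 13 Cxcl ligands, Cx3cl1, Xcl1, 10 Ccr and 6 Cxcr receptors, 4 Ackr receptors, Cx3cr1 and Xcr1.

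RNA-seq of 11 libraries was used to ask how far the mammary epithelial populations differ and how close their cultured counterparts stay to them. Freshly sorted cells came from the mammary glands of 8 week old virgin female FVB/N mice labelled wild type, after cells bearing endothelial, erythroid and leukocyte surface markers had been depleted or gated out. CD24+CD29hi cells are enriched in mammary stem cells and hold the myoepithelial cells (MaSC/basal, 3 libraries), CD24+CD29lo CD61+ cells are enriched in luminal progenitors (LP, 3 libraries) and CD24+CD29lo CD61- cells are mostly mature luminal cells (ML, 3 libraries). A mammosphere library (1) was made from MaSC/basal cells of the same kind of mice grown for a week in non-adherent culture with EGF, bFGF, insulin, hydrocortisone and B27, and 1 library came from CommaD-βGeo, here Comma Dβ, a Balb/c line derived from a mid-pregnancy gland. Both were single libraries, so their differences have no replicate check. The sorted groups are enriched rather than pure, and in such bulk samples fewer cells of a type and less RNA per cell cannot be told apart. No label says whether the replicates came from separate mice, so p-values measure the spread between these libraries. MaSC/basal replicate 1 carries a submitted name that holds "p53" although its label reads wild type.

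Libraries held between 19958838 (LP replicate 3) and 75795034 (ML replicate 2) reads assigned to genes. Levels are CPM, read counts scaled to a common library total, after TMM scaling, a correction for library composition, and 3 reads correspond to between 0.0399 and 0.160 CPM. The labelled populations carried their markers. The summed level of 6 basal markers was 13520 to 18440 CPM in MaSC/basal, 85.0 to 185 CPM in LP and 64.8 to 334 CPM in ML, with ML replicate 3 the highest of the luminal libraries (Krt5 141 CPM against 13.2 and 14.6 CPM in the other ML libraries). The 4 luminal markers summed to 1050 to 1213 CPM in MaSC/basal against 11610 to 15320 CPM in LP and ML. In Comma Dβ, the basal list summed to 1521 CPM, below MaSC/basal but above every LP and ML library. Its luminal list summed to 156 CPM, below every sorted library.

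Of the ligand genes described here, 5 lie together on mouse chromosome 5. All 5 were higher than in MaSC/basal cells in LP (against 28.0% of all genes tested) and in ML (against 29.7%). Upstream sequences are shown because 3 of the genes share a stretch of letters. Cxcl1, Cxcl2, Cxcl3, Cxcl5 and Cxcl15 lie within 146.6 kb (chr5:90759298-90905938, GRCm38). Any gene in this interval with another kind of symbol was outside the rule and was not examined. CXCL1, CXCL2, CXCL3 and CXCL5 are attractants of neutrophils that act through CXCR2, and their genes are classical targets of NF-κB. Below are the 100 bases before the RefSeq start of 4 of these genes, from the GRCm38.p6 reference (C57BL/6J) and not from the FVB/N mice, all on the + strand (chr5:90891145-90891244 for Cxcl1, chr5:90903799-90903898 for Cxcl2, chr5:90786001-90786100 for Cxcl3 and chr5:90794434-90794533 for Cxcl15). Capitals mark letters that match GGGANNTTC, a κB-type motif, on either strand.
Cxcl1: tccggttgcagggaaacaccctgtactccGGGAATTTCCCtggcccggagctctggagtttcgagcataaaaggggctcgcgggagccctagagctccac
Cxcl2: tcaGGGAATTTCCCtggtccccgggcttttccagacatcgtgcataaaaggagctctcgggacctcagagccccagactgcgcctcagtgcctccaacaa
Cxcl3: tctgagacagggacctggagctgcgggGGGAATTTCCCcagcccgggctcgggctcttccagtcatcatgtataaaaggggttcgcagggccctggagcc
Cxcl15: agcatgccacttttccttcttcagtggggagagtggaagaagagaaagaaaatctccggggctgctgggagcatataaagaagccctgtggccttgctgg
The same 11 capital bases stood in Cxcl1, Cxcl2 and Cxcl3, where matches on both strands overlapped, beginning 71, 97 and 73 bases before the start. Cxcl15 had no match in the 250 bases searched, and Cxcl5 had no entry in the table of upstream sequences. Across the 250 bases before each start, GGGANNTTC was found in 999 of 27025 genes (3.70%) and in 8 of the 46 chemokine genes with an entry (17.4%), which were Cxcl1, Cxcl2, Cxcl3, Cxcl9, Cxcl10, Ccl1, Ccr3 and Cxcr2. The GAS-type letters TTCNNNGAA were in 8.13% of all genes and in 3 chemokine genes (6.52%), and the AP-1-type letters TGANTCA in 7.82% of all genes and in 6 chemokine genes (13.0%). A match is a string of letters and not a site shown to be bound.

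Of the 62 genes, 32 passed the filter of over 0.5 CPM in at least 3 libraries (25 ligands and 7 receptors) and were tested. Of the 30 others, 5 had no read in any library (Cxcr1, Ccl19, Ccl21c, Ccl21d and Ccl26), and none exceeded 0.501 CPM in a sorted library. Mean levels over 0.5 CPM were reached by 22 genes in MaSC/basal, 29 in LP, 26 in ML, 27 in the mammosphere library and 18 in Comma Dβ. Reads of Ccl21a to Ccl21d, and of Ccl27a and Ccl27b, are uncertain because these genes are near-identical copies.

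**Figure D1:**
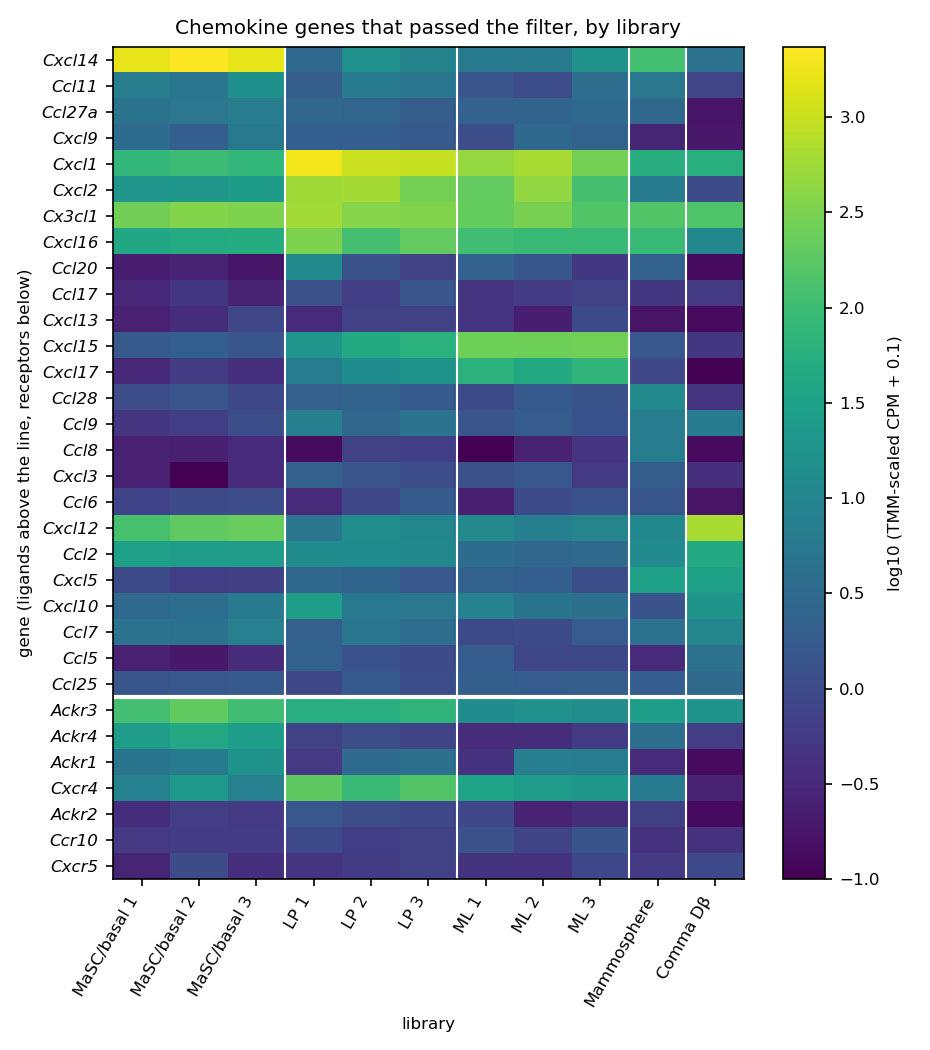
Levels of the 32 chemokine genes that passed the filter (rows) in each of the 11 libraries (columns), as log10 of TMM-scaled CPM plus 0.1. Cxcl14 is brightest in the 3 MaSC/basal libraries, Cxcl1 and Cxcl2 in LP and ML, Cxcl15 and Cxcl17 in ML and Cxcl12 in Comma Dβ.

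MaSC/basal cells and the luminal populations had different leading ligands. Cxcl14 took the largest share of ligand CPM in each MaSC/basal library and Cxcl1 in each LP and ML library. The next largest share was that of Cx3cl1 in LP replicates 1 and 3, of Cxcl2 in LP and ML replicate 2, and of Cxcl15 in ML replicates 1 and 3. Cxcl14 supplied 67.4 to 74.7% of all ligand CPM in the MaSC/basal libraries, whereas Cxcl1 supplied 45.9 to 54.3% in LP and 27.0 to 34.6% in ML. Per kilobase of exon, which allows levels of different genes to be compared, Cxcl14 was also first in MaSC/basal, at 888 to 1278 CPM per kb, and Cx3cl1 next at 84.2 to 117 CPM per kb. Cxcl1 came first in every LP and ML library, at 997 to 1937 and 298 to 652 CPM per kb. Among all ligands the summed level was 2246 to 3127 CPM in MaSC/basal, 1924 to 3408 CPM in LP and 1055 to 1815 CPM in ML. These ranges overlapped between MaSC/basal and LP.

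**Figure D2:**
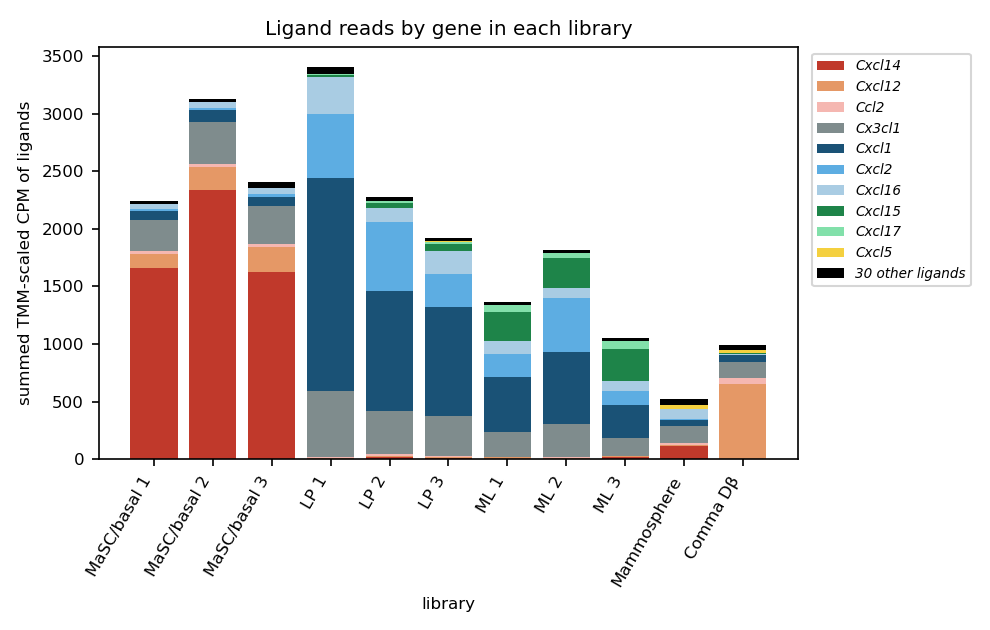
Summed TMM-scaled CPM of the 40 ligands in each library, stacked by gene, with 10 ligands in colour and the other 30 in black. Cxcl14 fills most of the MaSC/basal bars (67.4 to 74.7%), Cxcl1 is the largest block in LP and ML, and Cxcl12 makes up 65.6% of the Comma Dβ bar.

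Between MaSC/basal and LP cells, 6 chemokine genes were higher in MaSC/basal (18.8% of the 32, against 29.4% of all 15422 genes tested) and 15 were higher in LP (46.9%, against 28.0% of all genes), at a false discovery rate (FDR) under 0.05 in edgeR's quasi-likelihood test. Between MaSC/basal and ML, 8 were higher in MaSC/basal (25.0%, against 28.9%) and 11 in ML (34.4%, against 29.7%). Between LP and ML, 9 were higher in LP (28.1%, against 14.3%) and 2 in ML (6.25%, against 17.5%). The median log2 fold change of the 32 was -0.72 for MaSC/basal minus LP, -0.15 for MaSC/basal minus ML and 0.78 for LP minus ML, where the medians over all genes were -0.01 in each. These medians depend on which low genes are kept. With the looser filterByExpr rule 45 chemokine genes were kept and the medians were -0.07, -0.05 and 0.39, and with every gene of at least 1 read 57 were kept and the medians were -0.01, 0.25 and 0.38, so that the sign for MaSC/basal minus ML turned. In all, 25 of the 32 differed in at least 1 comparison and 8 in all 3 (Ackr3, Ackr4, Ccl2, Cxcl1, Cxcl15, Cxcl16, Cxcl17 and Cxcr4). Matching counts over all genes were not made, so these counts do not set chemokine genes apart. Without TMM scaling the median of all genes shifted by 0.15 (MaSC/basal minus LP) and -0.17 (LP minus ML), and 12 rather than 15 chemokine genes were higher in LP than in MaSC/basal.

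Of the ligands higher in MaSC/basal than in both luminal groups, Cxcl14 and Cxcl12 had the largest fold changes. CXCL14 is a homeostatic chemokine of skin and other epithelia, and CXCL12 is the ligand of CXCR4 and ACKR3. The Cxcl14 level was 1657, 2335 and 1622 CPM in MaSC/basal, 3.00, 16.1 and 8.76 CPM in LP, and 5.86, 6.25 and 17.4 CPM in ML, so that each MaSC/basal library exceeded each luminal library. The log2 fold change was 7.64 ± 0.73 (SE) over LP (edgeR adjusted p = 1.28e-05) and 7.59 ± 0.73 over ML (edgeR adjusted p = 1.17e-05), and LP and ML did not differ by the test (-0.05 ± 0.56, edgeR adjusted p = 0.959).

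Cxcl12 reached 126, 204 and 222 CPM in MaSC/basal against 5.11, 13.5 and 10.15 CPM in LP and 11.96, 7.58 and 9.48 CPM in ML. MaSC/basal again stood apart from both luminal groups. Its log2 fold change was 4.25 ± 0.38 over LP (edgeR adjusted p = 7.67e-06) and 4.25 ± 0.38 over ML (edgeR adjusted p = 6.88e-06). Markers of pericytes, another source of CXCL12, were also highest in MaSC/basal among the sorted groups. All 3 of 3 were higher there than in LP (100%, against 29.4% of all genes tested), and 2 of 3 higher than in ML (66.7%, against 28.9%). Their summed level was 29.7 to 45.0 CPM in MaSC/basal, 2.36 to 9.75 CPM in LP and 4.21 to 9.43 CPM in ML. In the mammosphere library this sum was 206.5 CPM beside Cxcl12 at 10.6 CPM, and in Comma Dβ 342 CPM beside Cxcl12 at 652 CPM. Of 5 fibroblast markers none was higher in MaSC/basal than in LP (against 29.4% of all genes tested) or ML (against 28.9%). Pdgfra was higher in LP than in MaSC/basal (1 of 5, 20.0%, against 28.0%), and none was higher in ML than in MaSC/basal. The summed level of the fibroblast markers was 481 to 708 CPM in MaSC/basal, 231 to 1121 CPM in LP and 382 to 794 CPM in ML. The part of these cells in the Cxcl12 level was not tested.

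The CC ligands Ccl2, Ccl7, Ccl11 and Ccl27a were also highest in MaSC/basal among the sorted groups. CCL2 and CCL7 attract monocytes through CCR2, CCL11 (eotaxin) attracts eosinophils through CCR3, and CCL27 attracts skin-homing T cells through CCR10. Ccl2, Ccl7 and Ccl11 lie within 144.2 kb on chromosome 11 (chr11:82035577-82179812, GRCm38), a cluster of 6 chemokine genes of which 4 passed the filter.

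The Ccl2 level was 29.0, 24.6 and 25.9 CPM in MaSC/basal, 12.8, 13.4 and 10.7 CPM in LP and 3.37, 2.63 and 3.19 CPM in ML. The 3 groups formed steps with no overlap. Ccl2 was higher in MaSC/basal than in LP by 1.10 ± 0.16 on the log2 scale (edgeR adjusted p = 0.000193), higher in MaSC/basal than in ML by 3.12 ± 0.17 (edgeR adjusted p = 3.98e-07) and higher in LP than in ML by 2.02 ± 0.17 (edgeR adjusted p = 0.000701).

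Ccl7 was at 4.60, 4.33 and 7.82 CPM in MaSC/basal, 2.08, 5.04 and 3.58 CPM in LP and 0.849, 0.891 and 1.78 CPM in ML, with ML below all other sorted libraries. MaSC/basal exceeded ML by 2.30 ± 0.42 on the log2 scale (edgeR adjusted p = 0.000967) and LP exceeded ML by 1.66 ± 0.42 (edgeR adjusted p = 0.0155), while MaSC/basal and LP overlapped (0.64 ± 0.39, edgeR adjusted p = 0.192). The Ccl7 call between LP and ML was lost without LP replicate 2 (edgeR adjusted p = 0.0587) or without ML replicate 1 (edgeR adjusted p = 0.0586).

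Ccl11 was at 6.82, 5.14 and 15.2 CPM in MaSC/basal, 2.01, 5.86 and 5.18 CPM in LP and 1.33, 0.970 and 3.56 CPM in ML. MaSC/basal lay above ML without overlap (2.27 ± 0.61 on the log2 scale, edgeR adjusted p = 0.00852) and overlapped with LP (1.06 ± 0.57, edgeR adjusted p = 0.142). LP minus ML was 1.22 ± 0.60 (edgeR adjusted p = 0.148), and without ML replicate 3 it passed the threshold (edgeR adjusted p = 0.0441). LP replicate 2, the LP library with the highest Ccl7, Ccl11 and Cxcl12, also had the highest summed fibroblast markers of the sorted libraries, at 1121 CPM, and their part was not tested.

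Ccl27a was at 4.79, 5.22 and 6.88 CPM in MaSC/basal, 2.72, 2.57 and 1.82 CPM in LP and 2.24, 2.31 and 3.01 CPM in ML. Both luminal groups lay below MaSC/basal, by 1.24 ± 0.26 (LP, edgeR adjusted p = 0.00216) and 1.17 ± 0.26 (ML, edgeR adjusted p = 0.00277) on the log2 scale.

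Among the receptors, the atypical receptors Ackr3 and Ackr4 followed the same order of MaSC/basal, LP and ML. ACKR3 takes up CXCL12 and CXCL11, and ACKR4 takes up CCL19, CCL21 and CCL25. The Ackr3 level was 113.5, 201 and 108 CPM in MaSC/basal, 56.5, 54.5 and 69.1 CPM in LP and 13.0, 16.4 and 13.7 CPM in ML. The groups did not overlap. Ackr3 was 1.23 ± 0.23 higher on the log2 scale in MaSC/basal than in LP (edgeR adjusted p = 0.00125), 3.29 ± 0.25 higher in MaSC/basal than in ML (edgeR adjusted p = 2.75e-06) and 2.06 ± 0.24 higher in LP than in ML (edgeR adjusted p = 0.000811).

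Ackr4 stood further apart, at 25.6, 43.1 and 28.0 CPM in MaSC/basal against 0.635, 0.973 and 0.694 CPM in LP and 0.255, 0.279 and 0.501 CPM in ML. MaSC/basal exceeded LP by 5.35 ± 0.33 (edgeR adjusted p = 8.3e-07) and ML by 6.63 ± 0.35 (edgeR adjusted p = 3.59e-07) on the log2 scale. LP exceeded ML by 1.28 ± 0.36 (edgeR adjusted p = 0.0224), a difference that rested on low counts and was lost without LP replicate 2, ML replicate 1 or ML replicate 2 (edgeR adjusted p = 0.0994, 0.0749 and 0.0786) and with limma voom (adjusted p = 0.11). Of the ligands of ACKR4, Ccl19 had no read in any library, the Ccl21 genes stayed at or below 0.131 CPM, and Ccl25 was at 0.776 to 2.04 CPM in the sorted libraries with no difference between groups past the threshold, although ML exceeded LP without LP replicate 2 (edgeR adjusted p = 0.0379) and without TMM scaling (edgeR adjusted p = 0.0481).

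Ackr1, which binds many inflammatory chemokines on venular endothelium and red cells, was at 4.63, 5.96 and 17.6 CPM in MaSC/basal, 0.423, 3.24 and 4.06 CPM in LP and 0.339, 7.36 and 6.74 CPM in ML. The libraries of batch 1 were the lowest of their group. No comparison of Ackr1 passed the test (MaSC/basal minus LP 1.88 ± 0.99, edgeR adjusted p = 0.129), whereas with library batch as a block MaSC/basal exceeded LP by 2.44 ± 0.66 (edgeR adjusted p = 0.0131), and without ML replicate 1 that comparison also passed (edgeR adjusted p = 0.0488). Like Ackr1, the endothelial markers other than Vwf had their highest mean among the sorted groups in MaSC/basal. Pecam1 was at 18.1, 19.2 and 39.5 CPM in MaSC/basal, 4.06, 10.4 and 8.87 CPM in LP and 2.94, 16.2 and 17.4 CPM in ML. Of 7 endothelial markers, 5 were higher in MaSC/basal than in LP (71.4%, against 29.4% of all genes tested) and 3 than in ML (42.9%, against 28.9%). Their summed level was 67.0 to 140 CPM in MaSC/basal, 20.9 to 57.1 CPM in LP and 101 to 140.5 CPM in ML. The ML sum was carried by Vwf, the 1 endothelial marker higher in ML than in MaSC/basal, at 91.0 to 107 CPM. Of 3 erythroid markers, 1 (Hba-a1) passed the filter. It was higher in ML than in MaSC/basal, by 2.77 ± 0.63 on the log2 scale (edgeR adjusted p = 0.00361). The erythroid list summed to 0.299 to 1.32 CPM in MaSC/basal, 0.212 to 0.908 CPM in LP and 2.23 to 3.83 CPM in ML. The part of endothelial cells or red cells in the Ackr1 level was not tested.

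Ackr2, a scavenger of inflammatory CC chemokines, was low throughout, at 0.272, 0.518 and 0.452 CPM in MaSC/basal, 1.45, 0.992 and 0.801 CPM in LP and 0.764, 0.160 and 0.273 CPM in ML. LP lay above MaSC/basal by 1.39 ± 0.53 on the log2 scale (edgeR adjusted p = 0.0461), but this call was lost with the batch block (edgeR adjusted p = 0.0566) and on leaving out any 1 of the 3 MaSC/basal or 3 LP libraries (edgeR adjusted p from 0.0523 without LP replicate 3 to 0.151 without MaSC/basal replicate 1). LP minus ML was 1.48 ± 0.55 (edgeR adjusted p = 0.0668) and passed without ML replicate 1 (edgeR adjusted p = 0.0117).

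The remaining retained receptors were CXCR4 and the lymphocyte receptors CCR10 and CXCR5. Cxcr4 was highest in LP cells, at 194.5, 88.8 and 153 CPM, against 8.31, 21.2 and 8.05 CPM in MaSC/basal and 34.8, 25.4 and 20.4 CPM in ML. Each LP library exceeded every other library. LP exceeded MaSC/basal by 3.54 ± 0.44 (edgeR adjusted p = 7.96e-05) and ML by 2.44 ± 0.42 (edgeR adjusted p = 0.00281) on the log2 scale. MaSC/basal and ML overlapped, and although ML passed the test (1.10 ± 0.41 higher, edgeR adjusted p = 0.0396), the call was lost with the batch block (edgeR adjusted p = 0.0829) and without MaSC/basal replicate 1, MaSC/basal replicate 3, LP replicate 3, ML replicate 1 or ML replicate 2 (edgeR adjusted p = 0.138, 0.129, 0.0543, 0.117 and 0.0576). Cxcl12 and Cxcr4 therefore peaked in different populations, the ligand in MaSC/basal and the signalling receptor in LP, while Ackr3 was highest where the ligand was.

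Ccr10, the receptor of CCL27 and CCL28, was at 0.441, 0.498 and 0.471 CPM in MaSC/basal, 0.811, 0.543 and 0.641 CPM in LP and 1.13, 0.691 and 1.28 CPM in ML. ML exceeded MaSC/basal by 1.10 ± 0.33 (edgeR adjusted p = 0.0146), and this was lost without MaSC/basal replicate 1 (edgeR adjusted p = 0.0511). Cxcr5 ran from 0.187 to 0.877 CPM in the sorted libraries, MaSC/basal replicate 2 being the highest, with no comparison past the test. Both levels are near the filter.

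**Figure D3:**
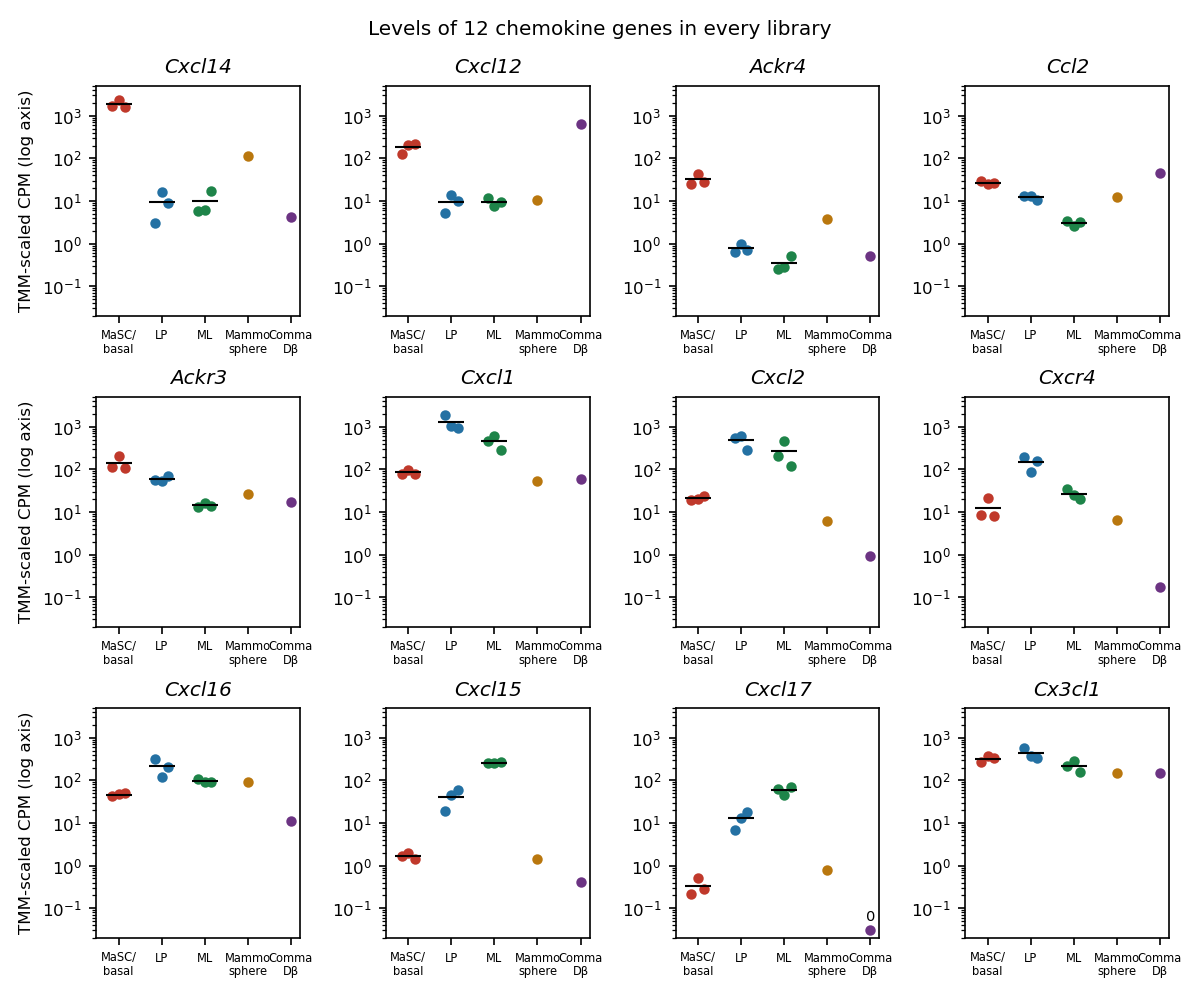
TMM-scaled CPM (log axis) of 12 chemokine genes in every library, with 1 point per library and a bar at the mean of the groups of 3. A point marked 0 has no read and is drawn at 0.03. The upper row and Ackr3 are highest in MaSC/basal among the sorted groups, Cxcl1, Cxcl2, Cxcr4 and Cxcl16 have their highest mean in LP, and Cxcl15 and Cxcl17 in ML, where Cxcl15 lies between 250 and 277 CPM.

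LP cells had the highest mean levels of Cxcl1, Cxcl2 and Cxcl16. Cxcl1 was at 1850, 1044 and 952 CPM in LP, 472, 623 and 285 CPM in ML and 78.2, 98.3 and 79.4 CPM in MaSC/basal. The 3 groups did not overlap. LP exceeded MaSC/basal by 3.91 ± 0.35 on the log2 scale (edgeR adjusted p = 9.16e-06), ML exceeded MaSC/basal by 2.43 ± 0.33 (edgeR adjusted p = 0.000133) and LP exceeded ML by 1.48 ± 0.32 (edgeR adjusted p = 0.00758).

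Cxcl2 was at 551.5, 598 and 282 CPM in LP, 206, 466 and 119 CPM in ML and 18.8, 20.2 and 24.2 CPM in MaSC/basal. Both luminal groups lay above MaSC/basal, by 4.50 ± 0.51 for LP (edgeR adjusted p = 3.87e-05) and 3.65 ± 0.49 for ML (edgeR adjusted p = 0.000111) on the log2 scale. LP and ML overlapped (0.85 ± 0.44, edgeR adjusted p = 0.165), but within each batch the LP library was the higher, by ratios of 2.67, 1.28 and 2.36, and with the batch block the difference passed (0.99 ± 0.22, edgeR adjusted p = 0.0102), as it did without ML replicate 2 (edgeR adjusted p = 0.00905).

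Cxcl3, at 0.961 to 2.05 CPM in LP, 0.456 to 1.41 CPM in ML and 0 to 0.245 CPM in MaSC/basal, was also called higher in both luminal groups, as was Cxcl5. All 5 of the chromosome 5 genes named above were thus higher in LP (against 28.0% of all genes tested) and in ML (against 29.7%) than in MaSC/basal. Between LP and ML, 1 was higher in LP (Cxcl1) and 1 in ML (Cxcl15). Other chemokine clusters were less uniform. Of Cxcl9 and Cxcl10, 1 was higher in LP than in MaSC/basal and 0 in ML. The counts were 2 and 1 of 3 tested genes in the Ccl5 cluster and 1 and 0 of 2 in the Ccl22 cluster. In the Ccl2 cluster they were 0 and 0 of 4. Cxcl3 carries the same κB-type letters as Cxcl1 and Cxcl2 but did not exceed 2.05 CPM in any sorted library.

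Cxcl16, a membrane-bound ligand of CXCR6 that ADAM10 sheds, was at 323, 120 and 205 CPM in LP, 108, 89.6 and 92.6 CPM in ML and 41.8, 48.1 and 49.8 CPM in MaSC/basal, in 3 steps without overlap. LP exceeded MaSC/basal by 2.21 ± 0.30 (edgeR adjusted p = 0.000128) and ML by 1.16 ± 0.29 (edgeR adjusted p = 0.014) on the log2 scale, and ML exceeded MaSC/basal by 1.06 ± 0.29 (edgeR adjusted p = 0.00959). The receptor gene Cxcr6 did not pass the filter and stayed at 0.0797 to 0.281 CPM in the sorted libraries.

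Cx3cl1 (fractalkine), the other membrane-bound ligand, was abundant in every population, at 265, 367 and 330 CPM in MaSC/basal, 571, 376 and 342 CPM in LP and 217, 293 and 155 CPM in ML. LP exceeded ML by 0.96 ± 0.27 on the log2 scale (edgeR adjusted p = 0.0222), a call lost without LP replicate 1, ML replicate 1 or ML replicate 3 (edgeR adjusted p = 0.0742, 0.0704 and 0.067). MaSC/basal overlapped with LP (-0.42 ± 0.26, edgeR adjusted p = 0.196) and with ML (0.53 ± 0.26, edgeR adjusted p = 0.108). With the batch block the difference from LP passed (-0.64 ± 0.23, edgeR adjusted p = 0.0426), and that from ML passed without ML replicate 2 (edgeR adjusted p = 0.0301). Its receptor gene Cx3cr1, a marker of macrophages and monocytes, was at 0.141 to 0.501 CPM in the sorted libraries.

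Cxcl10, an interferon-induced ligand of CXCR3, was at 27.1, 5.67 and 5.61 CPM in LP, 2.95, 3.71 and 6.12 CPM in MaSC/basal and 8.43, 4.98 and 3.92 CPM in ML. LP replicate 1 alone stood apart, and the LP and MaSC/basal libraries overlapped. The call of a higher level in LP than in MaSC/basal (1.58 ± 0.61 on the log2 scale, edgeR adjusted p = 0.0459) was lost with the batch block (edgeR adjusted p = 0.0691), with limma voom (adjusted p = 0.0989) and without LP replicate 1, where the difference was 0.42 ± 0.39 (edgeR adjusted p = 0.39). It was also lost without MaSC/basal replicate 1, 2 or 3 or ML replicate 2 (edgeR adjusted p = 0.145, 0.124, 0.0501 and 0.0524).

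Ccl9, a ligand of CCR1, was at 7.27, 2.68 and 4.59 CPM in LP, 1.30, 1.79 and 1.139 CPM in ML and 0.390, 0.558 and 1.02 CPM in MaSC/basal. LP lay above both other groups, by 2.88 ± 0.46 over MaSC/basal (edgeR adjusted p = 0.000393) and 1.75 ± 0.44 over ML (edgeR adjusted p = 0.0141) on the log2 scale, the latter lost without LP replicate 1 (edgeR adjusted p = 0.0514). ML minus MaSC/basal missed the threshold (1.13 ± 0.45, edgeR adjusted p = 0.0522) and passed without MaSC/basal replicate 3, LP replicate 1 or LP replicate 2 (edgeR adjusted p = 0.0187, 0.0378 and 0.0341).

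Ccl28, a mucosal ligand of CCR10, was at 2.08, 2.36 and 1.60 CPM in LP, 0.849, 1.64 and 1.23 CPM in ML and 0.984, 1.40 and 0.773 CPM in MaSC/basal. The difference between LP and MaSC/basal (0.95 ± 0.33, edgeR adjusted p = 0.0298) was lost without MaSC/basal replicate 1 or 3 or LP replicate 1 or 2 (edgeR adjusted p = 0.0886, 0.0909, 0.0604 and 0.091).

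Cxcl5 was at 2.79, 2.42 and 1.44 CPM in LP, 2.21, 1.90 and 1.00 CPM in ML and 0.865, 0.558 and 0.565 CPM in MaSC/basal, below the levels of the cultured libraries. LP exceeded MaSC/basal by 1.75 ± 0.35 (edgeR adjusted p = 0.00167) and ML exceeded MaSC/basal by 1.38 ± 0.35 (edgeR adjusted p = 0.00613) on the log2 scale. Of the other ligands that passed the filter, Ccl5 and Ccl20 were called higher in both luminal groups than in MaSC/basal and Ccl17 in LP alone, at levels up to 11.96 CPM (Ccl20, LP replicate 1). The Ccl20 difference between ML and MaSC/basal (3.51 ± 1.15 on the log2 scale, edgeR adjusted p = 0.0237) was lost without MaSC/basal replicate 1, 2 or 3 or ML replicate 1 (edgeR adjusted p = 0.0713, 0.0577, 0.0804 and 0.0679). Ccl6, Ccl8, Ccl25, Cxcl9 and Cxcl13, with Ackr1 and Cxcr5, were called in no comparison. Cxcl9 was higher in MaSC/basal than in LP and ML without MaSC/basal replicate 2 (edgeR adjusted p = 0.0356 and 0.0482).

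ML cells were set apart by Cxcl15 and Cxcl17. CXCL15 (lungkine) is an epithelial neutrophil attractant known from lung, and CXCL17 is a mucosal attractant of myeloid cells. Cxcl15 was at 250, 257 and 277 CPM in ML, 18.8, 44.5 and 61.0 CPM in LP and 1.65, 1.93 and 1.39 CPM in MaSC/basal. The groups lay in 3 steps without overlap. ML exceeded LP by 2.66 ± 0.35 (edgeR adjusted p = 0.000989) and MaSC/basal by 7.30 ± 0.44 (edgeR adjusted p = 6.05e-07), and LP exceeded MaSC/basal by 4.64 ± 0.39 (edgeR adjusted p = 5.81e-06) on the log2 scale.

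Cxcl17 had the same order, at 64.1, 45.7 and 71.0 CPM in ML, 6.88, 13.4 and 17.9 CPM in LP and 0.221, 0.498 and 0.283 CPM in MaSC/basal. ML exceeded LP by 2.24 ± 0.35 (edgeR adjusted p = 0.00171) and MaSC/basal by 7.50 ± 0.46 (edgeR adjusted p = 7.3e-07), and LP exceeded MaSC/basal by 5.25 ± 0.43 (edgeR adjusted p = 5.13e-06) on the log2 scale. In LP replicate 1 both genes were at their lowest among the LP libraries. Within each batch ML was the higher for both, LP reaching 0.0754, 0.173 and 0.220 of the ML level for Cxcl15 and 0.107, 0.294 and 0.253 for Cxcl17.

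Most receptor genes were low in the sorted libraries. The 15 receptors that did not pass the filter, and so are low by choice (Ccr1 to Ccr9, Cxcr1 to Cxcr3, Cxcr6, Xcr1 and Cx3cr1), summed to 1.64 to 1.90 CPM in MaSC/basal, 0.988 to 1.16 CPM in LP and 0.930 to 2.10 CPM in ML, and no single one exceeded 0.501 CPM. Cxcr2, the receptor of the CXCL1 and CXCL2 proteins, was at 0 to 0.199 CPM. Leukocytes use most of these receptors, but also Cxcr4, Ccr10 and Cxcr5, which passed the filter. Of 6 leukocyte markers, 5 passed the filter. Of these, 1 (Coro1a, 20.0%) was higher in MaSC/basal than in LP (against 29.4% of all genes tested) or ML (against 28.9%). Also 1 (Cytip, 20.0%) was higher in LP (against 28.0%) and in ML (against 29.7%) than in MaSC/basal. The list summed to 3.61 to 6.58 CPM in MaSC/basal, 23.7 to 60.2 CPM in LP and 16.8 to 27.6 CPM in ML, Cytip making up 16.6 to 57.7 CPM of the luminal levels. Ptprc, which encodes the depleted CD45, was at 0 to 1.66 CPM, with no read in ML replicate 1. Of 10 macrophage markers, which summed to 9.19 to 31.0 CPM, 7 passed the filter. Of these, 1 (Cd68, 14.3%) was higher in LP than in MaSC/basal (against 28.0% of all genes tested) and than in ML (against 14.3%). The T cell (7) and NK cell (5) lists held no gene that passed the filter, and summed to 0.501 to 1.59 and 0.0849 to 0.490 CPM.

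In each of 3 further lists 1 gene passed the filter. Of 6 granulocyte and mast cell markers this was S100a8, at 14.5, 36.6 and 7.42 CPM in LP, 2.04, 15.2 and 0.911 CPM in ML and 0.187, 0.239 and 0.415 CPM in MaSC/basal. It was higher than in MaSC/basal by 6.12 ± 1.13 in LP (edgeR adjusted p = 0.00105) and by 4.47 ± 1.08 in ML (edgeR adjusted p = 0.00491) on the log2 scale, the direction of Cxcl1, Cxcl2, Cxcl3 and Cxcl5, whereas S100a9, Csf3r and Ly6g stayed at or below 0.102, 0.0566 and 0.0170 CPM. The list summed to 0.584 to 0.698 CPM in MaSC/basal, 8.01 to 36.7 CPM in LP and 2.09 to 15.4 CPM in ML. Of 5 dendritic cell markers, Zbtb46 was higher in LP than in MaSC/basal (1.81 ± 0.45, edgeR adjusted p = 0.00648). The dendritic list summed to 3.07 to 4.75 CPM in MaSC/basal, 5.82 to 17.1 CPM in LP and 3.96 to 10.2 CPM in ML. Zbtb46 alone made up most of these sums, at 2.77 to 4.18, 5.29 to 17.1 and 3.60 to 9.80 CPM. Of 4 B cell markers, Cd79a was higher in MaSC/basal than in LP (1.74 ± 0.48, edgeR adjusted p = 0.0109) and ML (1.67 ± 0.47, edgeR adjusted p = 0.011), and the list summed to 1.07 to 1.60, 0.160 to 0.459 and 0.283 to 0.684 CPM. The part of leukocytes left after the sort in the chemokine levels was not tested.

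Among the pairs examined, ligand and receptor genes were seldom both present. From textbook knowledge 37 ligand and receptor pairs were taken. The ligand exceeded a mean of 0.5 CPM in at least 1 sorted population in 22 pairs, and the receptor in 8. Both genes did in 5, which were Cxcl12 with Cxcr4, Cxcl12 with Ackr3, Ccl27a with Ccr10, Ccl28 with Ccr10 and Ccl25 with Ackr4. No pair with Ackr1 or Ackr2 was on the list, although both passed the filter and bind several of these ligands, so the counts depend on the pairs chosen.

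Genes around the chemokines were examined as whole lists. Their counts stand against the shares of all 15422 genes called, which were 29.4% higher in MaSC/basal and 28.0% in LP, 28.9% higher in MaSC/basal and 29.7% in ML, and 14.3% higher in LP and 17.5% in ML. NF-κB is a transcription factor held inactive by IκB proteins, many of which it induces in turn. Of 14 genes of NF-κB subunits, inhibitors and activating kinases, none was higher in MaSC/basal, 11 were higher in LP (78.6%) and 6 in ML (42.9%) than in MaSC/basal, and 5 (35.7%) were higher in LP and 1 (Ikbkg, 7.14%) in ML between the luminal groups. Nfkbia (IκBα) was at 1997, 1024 and 1379 CPM in LP, 1172, 873.5 and 767 CPM in ML and 137, 194 and 167 CPM in MaSC/basal, and LP exceeded MaSC/basal by 3.15 ± 0.29 on the log2 scale (edgeR adjusted p = 9.55e-06). Nfkb1 was at 905, 1034 and 430 CPM in LP against 227, 238 and 306 CPM in MaSC/basal (1.62 ± 0.39, edgeR adjusted p = 0.00476).

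Of 22 cytokines, receptors and signal proteins that induce chemokines, 20 passed the filter, of which 10 were higher in LP (50.0%) and 1 in MaSC/basal (5.00%), 10 higher in ML (50.0%) and 3 in MaSC/basal (15%), and 8 higher in LP (40.0%) and 3 in ML (15%). Tnf, an inducer of NF-κB, was at 152, 103 and 101 CPM in LP, 60.9, 64.3 and 34.2 CPM in ML and 5.43, 6.76 and 8.03 CPM in MaSC/basal, and the LP level exceeded MaSC/basal by 4.14 ± 0.29 on the log2 scale (edgeR adjusted p = 1.97e-06). Tnfrsf1a, which encodes a TNF receptor, ran the other way, at 254 to 266.5 CPM in MaSC/basal and 111 to 131 CPM in LP (1.08 ± 0.12, edgeR adjusted p = 3.49e-05). Il1a and Il1b did not pass the filter and stayed at or below 0.678 CPM in the sorted libraries.

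Of 21 genes of receptor signalling and desensitization, 20 passed the filter, with 7 higher in MaSC/basal (35.0%) and 8 in LP (40.0%), 5 higher in MaSC/basal (25.0%) and 8 in ML (40.0%), and 2 higher in LP (10.0%) and 6 in ML (30%). Of 14 proteases and glycan carriers that cut or hold chemokines, 13 passed, with 7 higher in MaSC/basal (53.8%) and 3 in LP (23.1%), 6 higher in MaSC/basal (46.2%) and 1 in ML (7.69%), and 4 in each direction between LP and ML (30.8%). Dpp4, a peptidase that inactivates CXCL12, was at 20.9, 33.4 and 15.9 CPM in LP and 2.09, 2.57 and 3.92 CPM in MaSC/basal (3.04 ± 0.41 on the log2 scale, edgeR adjusted p = 0.000124), and Adam10, the CXCL16 sheddase, was at 609, 491.5 and 642 CPM in ML and 122, 99.5 and 117 CPM in MaSC/basal (2.36 ± 0.22, edgeR adjusted p = 9.17e-06). Of 10 related ligands and receptors, 8 passed, with 3 higher on each side between MaSC/basal and LP (37.5%), 4 higher in MaSC/basal (50.0%) and 3 in ML (37.5%), and 1 on each side between LP and ML (12.5%). Ccrl2, a chemokine-like receptor that presents chemerin, was at 136.5, 114 and 54.2 CPM in LP and 4.84, 6.22 and 7.01 CPM in MaSC/basal (4.08 ± 0.57, edgeR adjusted p = 0.000166).

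The mammosphere library had lower levels of the main MaSC/basal chemokine genes and higher levels of other ligands. Its basal markers were also lower than in MaSC/basal, at a sum of 3412 CPM against 13520 to 18440 CPM (Acta2 131 CPM against 5018 to 7567 CPM), and its luminal markers summed to 2697 CPM against 1050 to 1213 CPM. Fibroblast markers summed to 1725 CPM against 481 to 708 CPM and pericyte markers to 206.5 CPM against 29.7 to 45.0 CPM. The part of cell makeup in the values below was not tested. A gene was counted where its log2 CPM lay over 2 (4-fold) from the MaSC/basal mean, with no test. Of the 32 genes, 6 lay higher (18.8%, against 8.27% of all genes tested) and 6 lower (18.8%, against 8.35%), and the median difference was -0.35 on the log2 scale (-0.01 over all genes). Ccl8, among those higher, passed the filter only because the mammosphere library was counted in it. Its place in the counts of higher genes was thus partly fixed by the level being scored. Past 2-fold, 7 lay higher (21.9%, against 19.7% of all genes) and 12 lower (37.5%, against 20.0%). Those over 4-fold lower were Cxcl14, Cxcl12, Cxcl9, Ackr1, Ackr3 and Ackr4. Cxcl14 was at 115 CPM (5078 reads), 16.3-fold below the MaSC/basal mean of 1872 CPM, Cxcl12 at 10.6 CPM, 17.3-fold below 184 CPM, Ackr4 at 3.74 CPM, 8.61-fold below 32.2 CPM, and Ackr3 at 26.5 CPM, 5.31-fold below 141 CPM. Cxcr4 (6.58 CPM), Cxcl1 (52.6 CPM), Cxcl2 (6.27 CPM), Ccl2 (12.5 CPM) and Cx3cl1 (151 CPM) lay within 4-fold of the MaSC/basal mean.

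Over 4-fold higher in the mammosphere library were Cxcl5, Ccl8, Ccl9, Ccl20, Ccl28 and Cxcl3. Cxcl5 was at 31.7 CPM (1404 reads), 47.8-fold over the MaSC/basal mean of 0.663 CPM, and Ccl28 at 12.2 CPM (539 reads), 11.6-fold over 1.05 CPM. Ccl8, a monocyte attractant, was at 6.70 CPM (297 reads), 38.8-fold over 0.173 CPM, and Ccl9 at 7.13 CPM (316 reads), 10.9-fold over 0.655 CPM. Of the genes below the filter, Ccr1, the receptor of CCL9 on monocytes and neutrophils, was at 7.87 CPM (349 reads), 40.4-fold over 0.195 CPM, and Ccl22, a ligand of CCR4 made by macrophages and dendritic cells, at 5.98 CPM (265 reads), 30.4-fold over 0.197 CPM. Ccl12 and Ccr3 also lay past 4-fold, at 18 and 13 reads.

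Myeloid markers in the mammosphere library were mixed. Cd53 was at 14.97 CPM, S100a8 at 24.4 CPM, S100a9 at 6.31 CPM, Cd68 at 23.6 CPM, Lyz2 at 11.1 CPM and Csf1r at 5.25 CPM, each above its highest sorted library for all but S100a8, which reached 36.6 CPM in LP replicate 2. Ptprc, however, was at 0.271 CPM and C1qa at 0.428 CPM, within the range of the sorted libraries. The macrophage list summed to 42.7 CPM, against 15.3 to 19.7 CPM in MaSC/basal, and the T cell list to 0.0902 CPM. The leukocyte list summed to 25.9 CPM, above the 3.61 to 6.58 CPM of MaSC/basal but within the ranges of LP (23.7 to 60.2 CPM) and ML (16.8 to 27.6 CPM). Cd53 and Cytip (9.18 CPM) made up most of it. Cd53 was also above every sorted library in the Comma Dβ line, at 3.30 CPM. The part of myeloid cells in Ccr1, Ccl22, Ccl8 and Ccl9 was not tested.

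**Figure D4:**
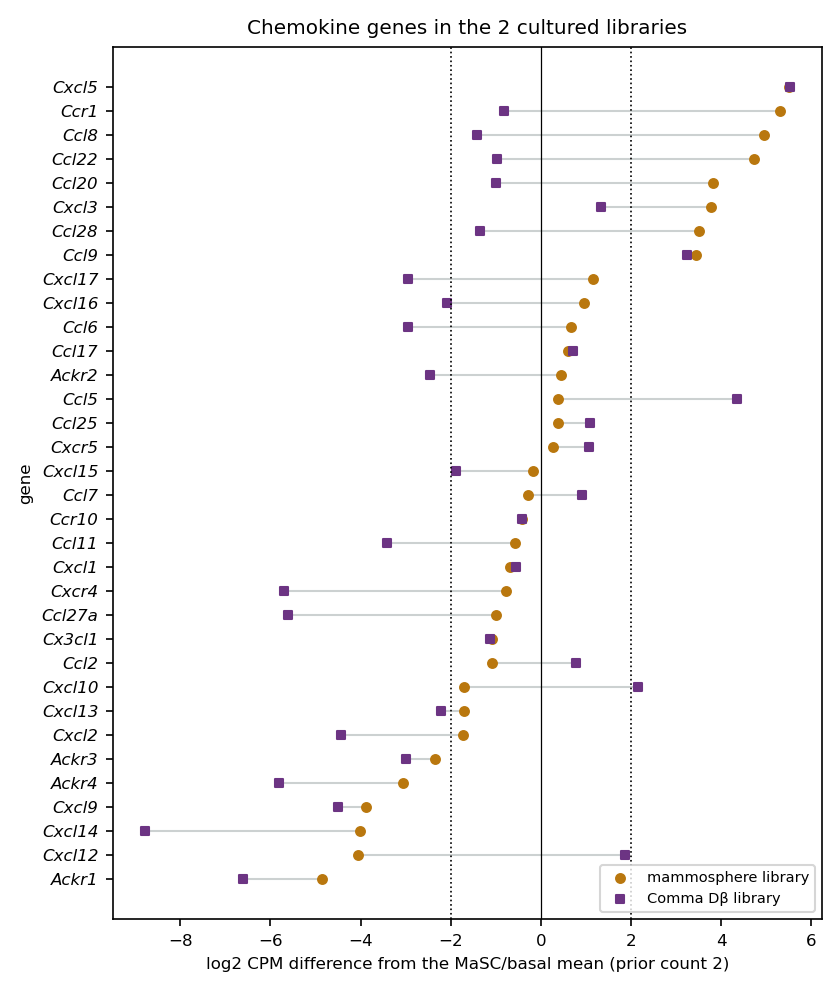
Difference in log2 CPM (prior count 2) of the mammosphere library (circles) and the Comma Dβ library (squares) from the mean of the 3 MaSC/basal libraries, for the 32 genes that passed the filter and for Ccl22 and Ccr1. Dotted lines mark 4-fold, and Cxcl5 lies near 5.5 in both libraries while Cxcl12 lies at -4.06 in the mammosphere and 1.87 in Comma Dβ. Values of genes with few reads depend on the prior count.

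Comma Dβ cells had high Cxcl12 but little Cxcl14, Ackr4 or Cxcr4. Of the 32 genes, 4 lay over 4-fold higher than the MaSC/basal mean (12.5%, against 5.10% of all genes) and 14 lower (43.8%, against 14.6%), with a median difference of -1.38 on the log2 scale (0.02 over all genes). Past 2-fold, 8 lay higher (25.0%, against 16.9% of all genes) and 18 lower (56.2%, against 24.8%). Cxcl12 was at 652 CPM (19158 reads), the highest of all 11 libraries and 3.54-fold over the MaSC/basal mean. Cxcl14, in contrast, was at 4.15 CPM (122 reads), 451-fold below. Fibroblast markers summed to 2652 CPM in this library, and pericyte markers to 342 CPM, both above every sorted library, and their relation to Cxcl12 was not tested. Batch 3 held no MaSC/basal library, so batch and line cannot be told apart.

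Over 4-fold higher in Comma Dβ were Cxcl5 (32.0 CPM, 48.2-fold over the MaSC/basal mean), Ccl5 (4.22 CPM, 24.5-fold), Ccl9 (6.195 CPM, 9.45-fold) and Cxcl10 (18.4 CPM, 4.31-fold). Ccl2 (45.7 CPM) and Ccl7 (10.1 CPM) were the highest of all libraries but within 4-fold of MaSC/basal. All 4 atypical receptors were lower, Ackr3 at 16.9 CPM, Ackr4 at 0.511 CPM, and Ackr1 and Ackr2 at 1 read each. Cxcr4 had 5 reads (0.170 CPM, 73.5-fold below), so that the line had the highest Cxcl12 and the lowest Cxcr4 of the 11 libraries. The luminal ligands were low as well, Cxcl2 at 0.919 CPM, Cxcl16 at 10.9 CPM, Cxcl15 at 0.409 CPM and Cxcl17 with no read, where 3 reads would be 0.102 CPM. The other genes over 4-fold lower were Ccl6, Ccl11, Ccl27a, Cxcl9 and Cxcl13, with 1 to 21 reads each.

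Ordered by mean level over the 5 sample types, Cxcl12 ran from Comma Dβ (652 CPM) and MaSC/basal (184 ± 51 CPM, SD, n = 3) to the mammosphere library (10.6 CPM), ML (9.67 ± 2.20 CPM, SD, n = 3) and LP (9.59 ± 4.23 CPM, SD, n = 3), the mammosphere library lying within the range of both luminal groups. Cxcr4 ran from LP (145 ± 53 CPM, SD, n = 3) and ML (26.8 ± 7.3 CPM, SD, n = 3) to MaSC/basal (12.5 ± 7.5 CPM, SD, n = 3), the mammosphere library (6.58 CPM) and Comma Dβ (0.170 CPM).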

How the data were processed

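RNA-seq was performed on 3 MaSC/basal, 3 LP, 3 ML, 1 mammosphere and 1 Comma Dβ library. The authors aligned reads to mm10 with Rsubread and assigned them to genes with featureCounts, and deposited raw counts per gene, neither normalized nor filtered, 1 table per library. Strand and multi-mapping settings are not given in the sources used here. Symbols and coordinates came from RefSeq (GRCm38).

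Genes over 0.5 CPM in at least 3 libraries (15422) were fitted in R 4.3.3 with edgeR 4.0.16 (quasi-likelihood test, TMM, a mean per sample type over all 11 libraries, Benjamini-Hochberg adjustment over all genes, called at FDR under 0.05). SE is the log2 fold change divided by the square root of F. Alternatives used limma 3.58.1 (voom, the tool of the study) and DESeq2 1.42.0, other scalings and filters, single replicates left out and library batch as a block. Batch comes from the labels: LP and ML libraries of 1 batch deviated together from their group means (r = 0.313 to 0.526), MaSC/basal and luminal libraries less so (r = -0.118 to 0.289). The scripts were tested on simulated data. The cultured libraries were compared by log2 CPM (prior count 2) without a test. Upstream sequences (250 bases) were from RefSeq, for 46 of the 62 genes.

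The members and lists were chosen with earlier results of these data known. Per-library values are given for genes with a mean of 5 CPM in at least 1 sample type and for retained receptors, with fold changes where a comparison was called or the gene is a retained receptor. Of other lists, counts are given with a few of the most abundant called genes. Examples such as Tnf, Dpp4, Adam10 and Ccrl2, the defining markers and the low ligands named were chosen after their values were seen.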

Additional observations from a re-analysis of the deposited data

How the results depend on the processing

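Of the 96 log2 fold changes of the 32 genes tested, 51 were called, and 41 of these kept their call under all 17 alternatives. Among the 1623 alternative values (Ccl8 was not tested in 3 alternatives), 1560 stayed on their side of the threshold, 44 lost a call, 19 gained one and none of the called values reversed. The 10 calls that were lost in at least 1 alternative were those of Ackr2, Ccl28 and Cxcl10 between MaSC/basal and LP, Ccl20, Cxcr4 and Ccr10 between MaSC/basal and ML, and Ackr4, Ccl7, Ccl9 and Cx3cl1 between LP and ML. When the labelled batch entered the fit as a replicate block, the chemokine genes called were 7 and 14 (MaSC/basal, LP), 8 and 10 (MaSC/basal, ML) and 10 and 2 (LP, ML), and beyond the changes given above for Ackr1, Ackr2, Cx3cl1, Cxcl2, Cxcl10 and Cxcr4 no call of a single gene changed. Without TMM scaling, the calls between MaSC/basal and LP of Ackr2, Ccl28 and Cxcl10 were lost (adjusted p = 0.0641, 0.0572 and 0.0578 in edgeR), and Ackr2 was also lost with DESeq2 (adjusted p = 0.0551) and with every gene of at least 1 read (edgeR adjusted p = 0.0508). Ccl9 between MaSC/basal and ML passed in these 3 settings (adjusted p = 0.041, 0.0351 and 0.0465), and Ackr2 between LP and ML with limma voom (adjusted p = 0.029). Single libraries that ended or made a call are named beside each gene. Under a stricter call (log2 fold change past 2, FDR below 0.001), 3 genes were higher in MaSC/basal and 8 in LP, 6 were higher in MaSC/basal and 4 in ML, and 2 were higher in LP and 1 in ML between the luminal groups. With every gene of at least 1 read, 10 genes lay over 4-fold higher in the mammosphere library, and at 2-fold 7 lay higher and 12 lower there, with 8 higher and 18 lower in Comma Dβ. Compared with MaSC/basal replicate 1 alone, an alternative chosen after seeing the data, the counts were 6 and 6 in the mammosphere and 5 and 11 in Comma Dβ. Leaving out 1 replicate gave 6 to 7 and 12 to 15 genes (MaSC/basal, LP), 8 to 9 and 8 to 12 (MaSC/basal, ML) and 7 to 9 and 2 to 3 (LP, ML). Apart from the 2-fold counts, shares of all genes were not counted under these alternative settings. The counts therefore show only how far the number of chemokine genes moved, not how chemokine genes compare with other genes. Depth limits the low receptors, since 0.5 CPM is 9.36 reads in LP replicate 3.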
